A study of Mus musculus with 2 samples.

Results

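The imprinted genes of the mouse were examined in ATAC-seq peak lists of wild-type (WT) and Uhrf1 knockout (KO) embryonic stem cells (ESCs). The set held 38 genes, taken as a list of known imprinted genes. No measured value entered the rule, but earlier results of these data were known when the list was chosen. Of the 38 genes, 37 were found among the 37310 genes of the GENCODE vM1 annotation. Kcnq1ot1 was placed separately by its RefSeq promoter sequence. A peak belonged to a gene when its middle lay within the gene or 10 kb on either side (the gene window), and to a start when its middle lay within 2 kb of an annotated transcript start. The windows of the 37 genes held 167 of the 71914 WT peaks and 144 of the 61640 KO peaks.

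ATAC-seq marks open chromatin, because the Tn5 transposase inserts sequencing adapters mainly where nucleosomes leave the DNA accessible. WT cells were undifferentiated E14 mouse ESCs, and the Uhrf1 KO cells were an undifferentiated E14 line that lacks Uhrf1. Both lines came from another laboratory, were kept with leukemia inhibitory factor on gelatin or on mouse embryonic fibroblasts (MEFs), and were profiled from 50000 lysed cells. Each genotype had 1 library of 1 line, so the values compare those libraries, no test between genotypes was made, and intervals are exact 95% intervals that cover counting error only. The deposited peaks are nearly all 101 bp wide with a constant score, so they give places of open chromatin and no strength.

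An imprinted gene is expressed from the maternal or the paternal copy only, according to a methylation mark set in the egg or the sperm. The mark sits on a germline differentially methylated region (gDMR), often a CpG-rich promoter that is methylated on the silent copy and open on the other. Uhrf1 recognises half-methylated DNA behind the replication fork and brings Dnmt1 to it, and in early embryos and ESCs Zfp57 with Trim28 protects the marks of gDMRs by binding methylated copies of a short sequence, TGCCGC. A peak list does not separate the parental copies, so a peak at a gDMR can come from either copy.

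Most imprinted genes had open starts in both genotypes. A start peak was listed in both libraries for 31 of the 37 genes, in WT ESCs alone for Igf2, in Uhrf1 KO ESCs alone for H19, and in neither for Usp29, Rian, Mirg and Nnat. Thus 32 genes had a start peak in each library. Over all annotated genes the shares with a start peak were 45.7% in WT and 42.0% in Uhrf1 KO, with 5.62% in the WT list only and 1.92% in the KO list only. Over the 22380 protein-coding genes the corresponding shares were 63.6%, 58.7%, 6.64% and 1.73%. The 1 gene of 37 in each of the 1-list states is near these background shares and is not a result about imprinted genes as a set.

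Within the gene windows, 17 genes had fewer peaks in Uhrf1 KO than in WT, 12 had more and 8 had the same number. The median difference per gene was 0, as it was over protein-coding genes and over all annotated genes. The shares of all genes with fewer or more KO peaks were not computed, so these counts are not a result about imprinted genes as a set. The median gene held 4 WT peaks and 3 KO peaks, against 3 and 2 for protein-coding genes. The ratio of KO to WT peaks in the windows was 0.862 (interval 0.685 to 1.08), beside 0.857 for the whole lists. A peak was called shared when a peak of the other library lay at most 100 bp away, and otherwise WT-only or KO-only. WT-only peaks made up 37 of 167 (22.2%, interval 16.1 to 29.2), beside 30.8% in the windows of protein-coding genes. KO-only peaks made up 26 of 144 (18.1%, interval 12.1 to 25.3), beside 19.1%. At least 1 WT-only peak was found at 18 genes, at least 1 KO-only peak at 16, and no unshared peak at 10. The shares of all genes with such peaks were not computed, so these counts only describe the set.

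**Figure D1:**
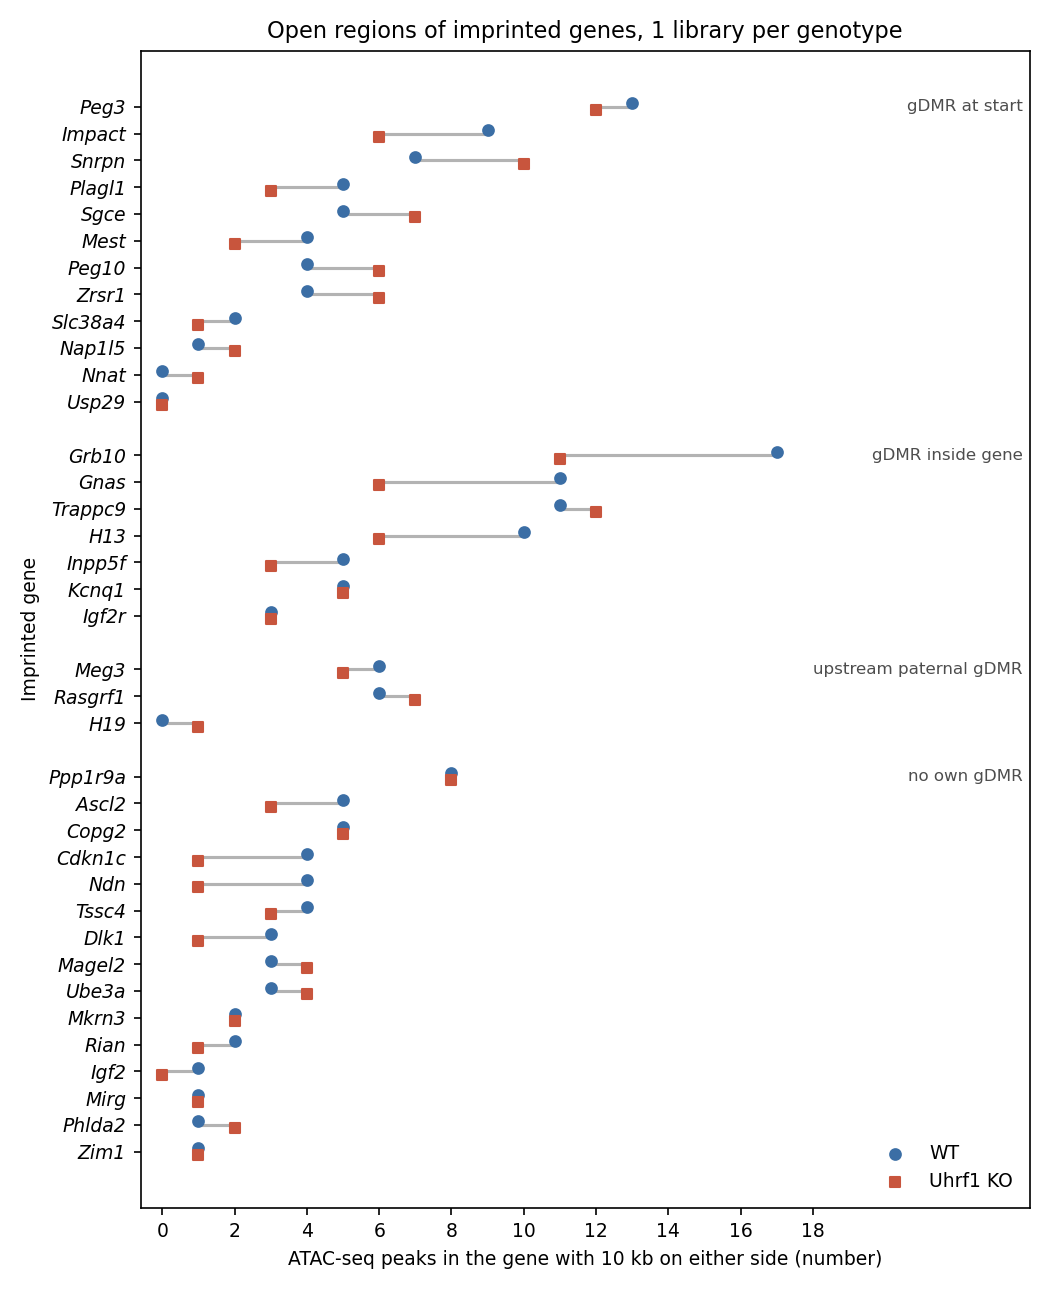
Number of ATAC-seq peaks (x axis) in each imprinted gene with 10 kb on either side (y axis), with WT as circles and Uhrf1 KO as squares, grouped by where the germline differentially methylated region (gDMR) lies. Grb10 shows the widest gap, with 17 WT and 11 KO peaks, and H19 and Nnat have 1 KO peak and no WT peak, while Usp29 has none in either list.

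H19 and Igf2 are neighbours on chromosome 7 that share enhancers and a control region upstream of H19, which is methylated on the paternal copy. H19, a maternally expressed non-coding RNA (chr7:149761434-149764048, mm9, minus strand), had 0 WT peaks in its window (interval 0 to 3.69) and 1 KO peak, 60 bp upstream of a start. Igf2, the paternally expressed growth factor (chr7:149836673-149852721, minus strand), showed the opposite pattern, with 1 WT peak in an intron, 58 bp upstream of 1 of its 9 annotated starts, and 0 KO peaks. The windows of both genes held no other peak in either list, and the H19 window takes in the 10 kb upstream of the gene. By the number in its name, which ranks peaks within their chromosome and has no stated meaning, the H19 peak stood at 99.7% of the chromosome 7 KO peaks and the Igf2 peak at 56.3% of the WT peaks. Unshared peaks had higher numbers than shared ones throughout, with median ranks of 75.2% for KO-only and 35.7% for shared KO peaks of the imprinted windows, and the part of this in the H19 peak was not tested. Both peaks are shown on the plus strand of mm9 (NCBIM37) with CpG dinucleotides in capitals, since they are the only start peaks of a gene that is open in 1 list alone.
H19, KO-only, chr7:149764058-149764158: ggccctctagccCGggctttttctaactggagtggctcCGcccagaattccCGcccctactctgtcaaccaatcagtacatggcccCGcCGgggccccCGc
Igf2, WT-only, chr7:149845402-149845502: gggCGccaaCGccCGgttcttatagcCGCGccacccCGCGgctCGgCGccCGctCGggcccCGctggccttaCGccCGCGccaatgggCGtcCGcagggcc
The H19 peak held 6 CpGs and the Igf2 peak 17, beside a median of 8 for peaks at protein-coding starts in both libraries.

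Igf2r encodes the receptor that removes Igf2, and the gDMR in its intron is the promoter of the antisense RNA Airn, which is methylated on the maternal copy. The start of Igf2r (chr17:12875272-12962530, minus strand) was open in both libraries, with 3 WT and 2 KO start peaks, and 1 of these WT peaks, 189 bp into the gene, was WT-only. The window held 3 peaks in each library. The third KO peak was KO-only and lay inside the Igf2r intron, 39 bp upstream of an annotated Airn start, where WT ESCs had no peak. It ranked at 20.9% of the chromosome 17 KO peaks by name number. The sequence, again with CpGs in capitals, holds 1 CpG.
Airn, KO-only, chr17:12934088-12934188: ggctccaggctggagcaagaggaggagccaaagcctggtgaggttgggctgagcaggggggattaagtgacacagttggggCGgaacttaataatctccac

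Zrsr1 and Nnat, each with a gDMR at the start, also carried KO-only peaks that lay close to a start, of the gene itself or of the gene that surrounds it. Zrsr1, a retrogene within Commd1 (chr11:22873215-22876498, plus strand), had 1 WT and 3 KO start peaks. The WT peak lay 1311 bp upstream and was shared, and the 2 KO-only peaks lay 1080 bp and 323 bp upstream of the Zrsr1 start. The second of these was also 33 bp from an annotated Commd1 start. Their name numbers ranked at 43.8% and 48.1%. Within 1 kb of its start Zrsr1 was thus open in the KO list only. Nnat, which encodes a membrane proteolipid of neurons (chr2:157385814-157388258, plus strand), had no start peak in either library, and its window held 0 WT peaks and 1 KO-only peak. That peak lay 5.63 kb downstream of the nearest Nnat start and 277 bp upstream of a start of Blcap, the gene that surrounds Nnat. It ranked at 87.1%. Sequences of both peaks, with CpGs in capitals, hold 9 and 7 CpGs.
Zrsr1, KO-only, chr11:22872842-22872942: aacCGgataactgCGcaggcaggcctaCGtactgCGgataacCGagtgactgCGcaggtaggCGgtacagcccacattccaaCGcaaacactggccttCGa
Nnat window, KO-only, chr2:157392324-157392424: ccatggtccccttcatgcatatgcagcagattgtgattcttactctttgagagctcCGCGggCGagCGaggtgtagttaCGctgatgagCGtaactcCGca

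At the other gDMR promoters the open regions were in nearly the same places in both libraries. Peg3, a zinc finger gene (chr7:6656603-6683132, minus strand), was the most densely covered of them, with 13 WT and 12 KO peaks, all shared. Of these, 7 in each library lay within 2 kb of a start. A cluster of 5 WT and 4 KO peaks lay farther inside the gene, 2470 to 2996 bp past the start. Of the peaks within 2 kb, 1 in each library stood just upstream of the start (84 bp in WT, 64 bp in Uhrf1 KO) and the rest between 733 and 1959 bp inside the first part of the gene. Their name numbers were low, from 0.981% to 11.8%. The remaining peak of each list lay past the end of Peg3, at the start of Zim1, a maternally expressed zinc finger gene (80 bp upstream in WT, 84 bp in Uhrf1 KO). Usp29, the ubiquitin-specific peptidase that shares the Peg3 promoter, had no peak in its GENCODE vM1 window, which begins far downstream. Its RefSeq promoter (GRCm38.p6 sequence) matched mm9 at 1 place, with the start at position 6683294 of chromosome 7, 162 bp from the Peg3 start, and 6 WT and 5 KO peaks lay within 2 kb of it, all shared.

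Snrpn encodes a splicing protein of the brain and its promoter is the gDMR of the Prader-Willi and Angelman region. The gene (chr7:67127388-67285105, minus strand) had 7 peaks in WT and 10 in Uhrf1 KO, the largest excess of KO peaks among the imprinted genes. At the starts there were 6 WT and 7 KO peaks, all shared. Its 2 KO-only peaks lay in an intron, 49455 and 56091 bp upstream of the nearest start, and ranked at 76.9% and 85.3%. Of the other genes of this region, Ndn, a MAGE family gene of neurons (chr7:69493163-69494814, plus strand), had 4 start peaks in WT and 1 in Uhrf1 KO. The KO peak, 2 bp upstream of the start, was shared with 2 WT peaks, and the WT-only peaks lay 236 and 767 bp inside the gene. Magel2, another MAGE family gene (chr7:69521865-69526526, plus strand), had 3 WT and 4 KO peaks, of which 3 KO peaks were KO-only, at 1137 bp upstream, 465 bp downstream and 5623 bp downstream of the start. Ube3a, the maternally expressed ubiquitin ligase of neurons, had 3 WT and 4 KO peaks, 1 of them WT-only. Mkrn3, a ring finger gene, had 2 shared peaks in each library.

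The starts of the remaining gDMR promoters were open in both lists with few or no unshared peaks. Mest, an enzyme of the hydrolase family (chr6:30673547-30698457, plus strand), had 4 WT and 2 KO start peaks. The pair at its gDMR promoter, 48 bp upstream and 28 bp downstream in WT, was shared, and the WT-only peaks lay 947 bp upstream and 1266 bp downstream of a start. Peg10 and Sgce start back to back on chromosome 6 and share their promoter peaks. Peg10, a gene derived from a retrotransposon (chr6:4697306-4710514, plus strand), had 3 WT and 4 KO start peaks, all shared. Sgce, the epsilon-sarcoglycan gene (chr6:4624350-4697204, minus strand), had 2 WT and 3 KO start peaks, all shared. Across both windows 3 KO-only peaks lay away from the starts, at distances from 4.54 to 22.5 kb. Plagl1 (chr10:12810497-12851500, plus strand), a zinc finger growth regulator, kept the pair of peaks at its gDMR promoter in both lists, and 2 further WT peaks, 1061 and 2650 bp downstream of later starts, were WT-only. Nap1l5, a retrogene of the nucleosome assembly protein family (chr6:58855228-58857120, minus strand), had 1 WT and 2 KO peaks, all shared. Slc38a4, an amino acid transporter (chr15:96825254-96886387, minus strand), had 2 WT and 1 KO peak, all shared. Impact, a regulator of translation (chr18:13130761-13151457, plus strand), had 9 WT and 6 KO peaks, of which 8 and 5 were start peaks, and all were shared. Its start peaks ran from 117 bp upstream to 1635 bp downstream in WT and from 115 bp upstream to 1643 bp downstream in Uhrf1 KO. Some KO peaks there had more than 1 WT partner. The WT peaks 1 and 77 bp downstream of the start lay 116 and 192 bp from their KO partner and did not overlap it.

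The RefSeq promoter of Kcnq1ot1, the antisense RNA that silences the Kcnq1 cluster, matched mm9 at 1 place, with the start at position 150482452 of chromosome 7 on the minus strand. It lies in an intron of Kcnq1, 148 kb from the nearest Kcnq1 start. WT ESCs had 2 peaks there and Uhrf1 KO ESCs had 1, all shared, and the nearest lay 95 bp upstream in WT and 93 bp upstream in Uhrf1 KO. Thus Kcnq1ot1, Peg3, Snrpn, Mest, Peg10, Sgce, Plagl1, Nap1l5, Impact and Slc38a4 each had a peak close to the start in both libraries. The bounds of their gDMRs were not used, so whether these peaks lie inside them was not tested.

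**Figure D2:**
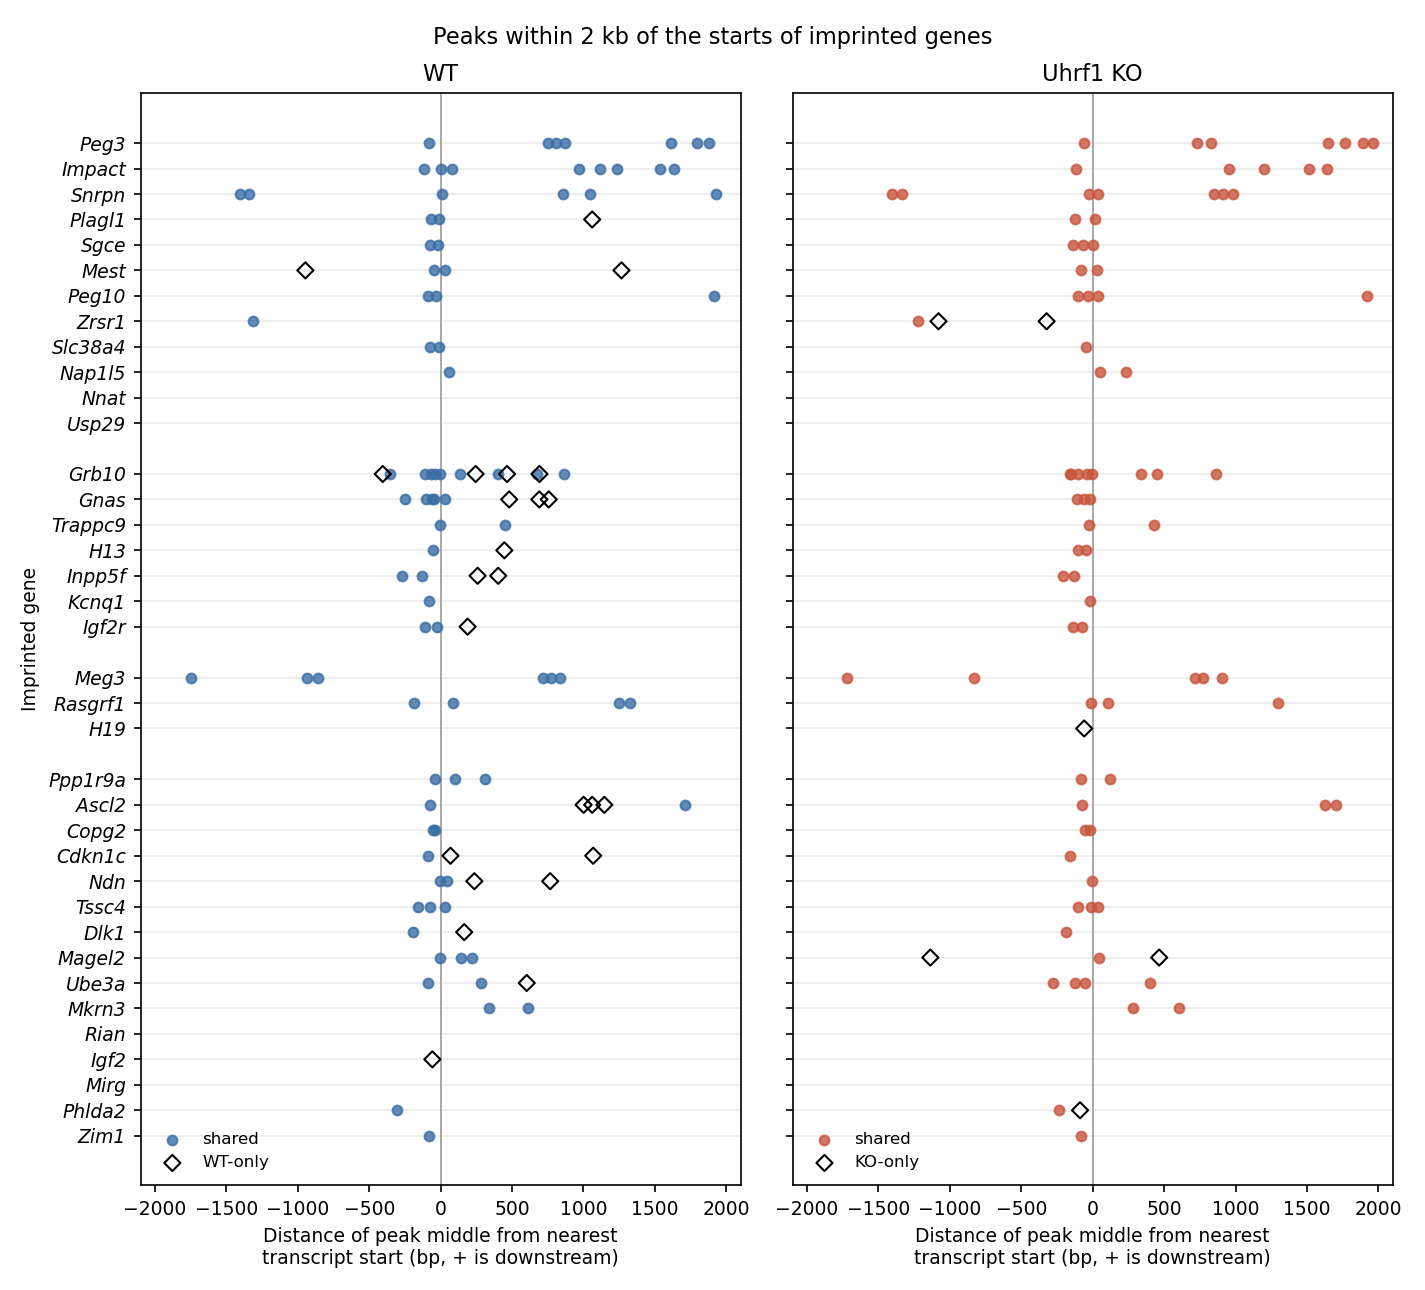
Places of peaks within 2 kb of annotated starts for each imprinted gene (y axis), in WT (left) and Uhrf1 KO (right). The x axis is the distance of the peak middle from the nearest start in bp, positive downstream of that start. Filled points are shared peaks and diamonds are peaks without a partner. H19 has only a KO diamond 60 bp upstream and Igf2 only a WT diamond 58 bp upstream, and 21 of the 24 WT-only peaks lie downstream of a start.

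The KO peak closest to a start is shown for 5 genes whose gDMR promoters were open in both lists, chosen after their values were seen because these peaks carry the sequence that Zfp57 is known to bind. All have a WT partner and are written on the plus strand of mm9, with the hexamer TGCCGC or its reverse complement GCGGCA in capitals.
Snrpn, 23 bp upstream, chr7:67150015-67150115: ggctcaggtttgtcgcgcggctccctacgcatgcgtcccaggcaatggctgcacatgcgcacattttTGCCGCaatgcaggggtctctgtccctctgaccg
Mest, 29 bp downstream, chr6:30688042-30688142: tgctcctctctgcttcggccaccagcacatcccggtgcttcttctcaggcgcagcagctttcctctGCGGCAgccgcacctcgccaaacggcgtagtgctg
Peg10, 36 bp upstream, chr6:4697220-4697320: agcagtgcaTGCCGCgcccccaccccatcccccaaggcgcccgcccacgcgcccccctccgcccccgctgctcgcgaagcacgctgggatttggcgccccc
Plagl1, 13 bp downstream, chr10:12810481-12810581: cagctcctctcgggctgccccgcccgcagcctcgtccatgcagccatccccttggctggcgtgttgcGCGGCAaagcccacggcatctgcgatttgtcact
Nap1l5, 52 bp downstream, chr6:58857018-58857118: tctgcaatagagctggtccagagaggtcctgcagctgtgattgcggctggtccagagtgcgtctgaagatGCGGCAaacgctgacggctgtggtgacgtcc
Each of these 5 peaks held the hexamer once. At Peg3 a shared KO peak 733 bp inside the gene held it at 2 places, but the KO peaks nearest the starts of Peg3, Impact, Slc38a4, Zrsr1 and Kcnq1ot1 held none. Both WT peaks at the gDMR promoter of Plagl1 held none either.

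Both strands of every 101 bp peak were searched for this hexamer. At the starts of the 12 annotated genes with a gDMR at the start it was present in 10 of 35 WT peaks (28.6%, interval 14.6 to 46.3) and in 14 of 33 KO peaks (42.4%, interval 25.5 to 60.8). At protein-coding starts the shares were 9.51% in WT and 8.71% in Uhrf1 KO, and in all peaks 6.66% and 5.46%. At the starts of imprinted genes with no gDMR of their own the hexamer was in 4 of 33 WT peaks (12.1%) and 1 of 25 KO peaks (4.0%). Where the gDMR is inside the gene it was in 4 of 33 WT (12.1%) and 1 of 20 KO start peaks (5.00%). At the start of Mcts2, an inner gDMR promoter of H13, 1 WT peak held it 3 times and the KO peak held none. The KO-only peak at the Airn start held none. Overlapping peaks can cover the same copy, as both do upstream of Peg10 in each list, so the peaks are not independent, and the letters alone do not show binding. The core of the CTCF motif (GGNGGCAG or CTGCCNCC) was in 10 of 167 WT peaks (5.99%) and 10 of 144 KO peaks (6.94%) of the imprinted windows, beside 7.98% and 6.34% of all peaks.

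**Figure D3:**
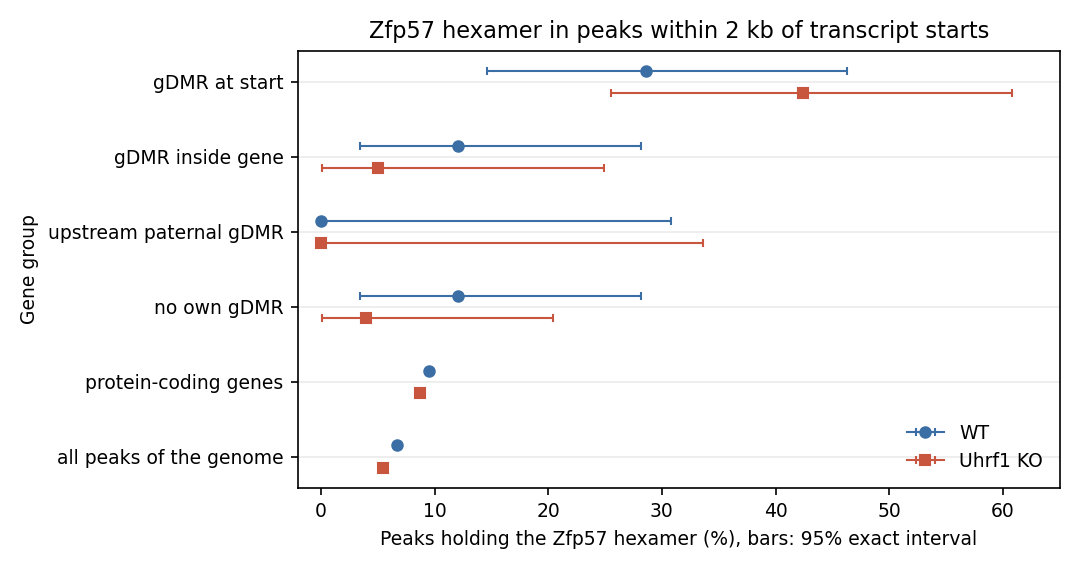
Share of peaks within 2 kb of starts that hold the Zfp57 hexamer (x axis, percent, with exact 95% intervals) for groups of imprinted genes, protein-coding genes and all peaks (y axis), with WT as circles and Uhrf1 KO as squares. The group with a gDMR at the start has the highest shares, 28.6% in WT and 42.4% in Uhrf1 KO.

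The 3 largest differences in peak number, at Grb10, Gnas and H13, were at genes that host a gDMR inside their body. Grb10, an adaptor of growth factor receptors with different imprinted promoters (chr11:11830511-11938686, minus strand), had 17 WT and 11 KO peaks, of which 6 were WT-only and 1 was KO-only. Of these, 13 WT and 8 KO peaks were start peaks, and all 8 KO start peaks were shared. They formed a promoter cluster between 11925585 and 11926934 and another between 11936489 and 11937859 of chromosome 11, and each cluster was open in both lists. Of the WT-only start peaks, 4 belonged to these clusters, at their edges or between shared peaks.

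Gnas, the G protein alpha subunit with several imprinted promoters (chr2:174109821-174172245, plus strand), had 11 WT and 6 KO peaks. At the starts there were 8 WT and 3 KO peaks. All 3 KO peaks were shared, and 3 WT-only peaks lay 480, 691 and 757 bp downstream of a start, inside the gene. The gene also held a peak in both lists close to the start of the antisense RNA Nespas, 46 bp upstream in WT and 130 bp upstream in Uhrf1 KO, and a KO-only peak 682 bp inside Nespas that ranked at 99.5%.

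H13, a signal peptide peptidase (chr2:152495197-152534406, plus strand), had 10 WT and 6 KO peaks, of which 1 was WT-only and none was KO-only. Its inner gDMR is the promoter of the retrogene Mcts2, where WT ESCs had 3 peaks, 243 and 162 bp upstream and 9 bp downstream of the start, and Uhrf1 KO ESCs had 1 peak 192 bp upstream. All of these were shared, but the WT peak downstream of the start did not overlap the KO peak. Their middles lay 201 bp apart.

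Trappc9, a trafficking gene of 472 kb (chr15:72420051-72891634, minus strand), had 11 WT and 12 KO peaks, with 4 WT-only and 5 KO-only. All of its unshared peaks lay in introns, at least 34.3 kb from an annotated Trappc9 start, and its start peaks, 2 in each library, were shared. Starts of other genes inside its introns, and the place of its inner gDMR, were not looked up. A group of 3 KO-only peaks stood less than 1 kb from a pair of shared peaks at 245685 to 245813 bp from the start. Inpp5f, an inositol phosphatase (chr7:135754842-135839939, plus strand), had 5 WT and 3 KO peaks. Its 2 WT-only peaks lay 259 and 403 bp inside the gene, next to shared peaks upstream of the start. Kcnq1, a potassium channel gene of 320 kb (chr7:150293159-150612955, plus strand), had 5 peaks in each library, 1 WT-only and 1 KO-only. The central 31 bp of the Kcnq1 KO-only peak occur at 1129996 places of the genome, so reads there could have come from other copies.

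In the Kcnq1 cluster, the maternally expressed genes around Kcnq1ot1 had varied numbers. Cdkn1c, an inhibitor of cyclin-dependent kinases (chr7:150644255-150646955, minus strand), had 4 WT peaks and 1 KO peak. The shared pair stood just upstream of its start, 91 bp in WT and 156 bp in Uhrf1 KO, and the WT-only peaks lay 69 bp and 1068 bp inside the gene and 4145 bp upstream. Ascl2, a trophoblast transcription factor, had 5 WT and 3 KO peaks, and 3 neighbouring WT-only peaks lay 1001 to 1146 bp inside the gene. Tssc4 had 4 WT and 3 KO peaks with 1 WT-only. Phlda2, a regulator of placental growth, had 1 WT and 2 KO peaks, and the KO-only peak lay 89 bp upstream of its start.

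In the Dlk1-Meg3 region of chromosome 12, Meg3, a maternally expressed non-coding RNA, had 6 WT and 5 KO start peaks, all shared, and 1 of them (from 110781201 to 110781301) was listed at exactly the same position in both libraries. Dlk1, the paternally expressed Notch ligand, had 3 WT peaks and 1 KO peak. Its shared peak lay 195 bp upstream of a start in WT and 190 bp in Uhrf1 KO, and WT-only peaks lay 165 bp downstream and 6581 bp upstream. Rian, a host of small nucleolar RNAs, had 2 WT peaks and 1 KO peak, and Mirg, a host of microRNAs, had 1 in each, with no peak at a start and none unshared. Rasgrf1, a Ras exchange factor on chromosome 9 whose control region lies upstream of the window, had 6 WT and 7 KO peaks. All were shared except 1 KO peak 59.4 kb inside the gene. Copg2, a coatomer subunit next to Mest, had 5 peaks in each library with 1 unshared in each. Ppp1r9a, the neurabin gene near Peg10, had 8 in each with 1 WT-only and 2 KO-only.

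The 7 genes with the widest differences in peak number were Grb10, Gnas and H13, with 6, 5 and 4 fewer KO peaks, and Cdkn1c, Ndn and Impact, with 3 fewer each, and Snrpn, with 3 more. At all 7 the start was open in both libraries. The exact Poisson intervals of the WT and KO numbers overlapped at each of them, and at Grb10 they ran from 9.90 to 27.2 for WT and from 5.49 to 19.7 for Uhrf1 KO.

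Grouped by place of the gDMR, the share of WT peaks without a KO partner was lower where the gDMR is at the start than where it is inside the gene or absent. In the windows of these 12 genes 4 of 50 WT peaks were WT-only (8.0%, interval 2.22 to 19.2), all at Mest and Plagl1. Without Peg3, the gene with the most peaks of this group, the share was 10.8%. In the 7 genes with a gDMR inside, 19 of 62 were WT-only (30.6%, interval 19.6 to 43.7), and in the 15 genes with no gDMR of their own 15 of 47 (31.9%, interval 19.1 to 47.1). The first and last of these intervals overlap, between 19.1 and 19.2. Peg3 and Impact supplied 13 and 9 of the 50 WT peaks of the first group, and neighbouring peaks can share 1 partner. The peaks are therefore not independent, and the intervals do not test the groups of genes against each other. A WT-only peak that lies in the windows of both Mest and Copg2 is counted in each group. For H19, Meg3 and Rasgrf1, whose control regions are methylated on the paternal copy, the WT-only share was 0 of 12 (0%, interval 0 to 26.5). The KO-only shares were 8 of 51 (15.7%), 9 of 46 (19.6%), 7 of 37 (18.9%) and 2 of 13 (15.4%) in the same order. With 50 kb on either side the WT-only share at genes with a gDMR at the start was 17.8% (interval 9.84 to 28.5), beside 29.9% (interval 20.5 to 40.6) without a gDMR, and these intervals overlap. When 1 bp had to be shared it was 18% (interval 8.58 to 31.4), beside 38.3% (interval 24.5 to 53.6). The median WT rank by name number was 27.7% at genes with a gDMR at the start (41.2% without Peg3), 50.6% at genes with one inside and 49.2% at genes without one. For H19, Meg3 and Rasgrf1 it was 57.7%, from 12 WT peaks that were all at Meg3 and Rasgrf1. Over all imprinted windows the median rank was 69.5% for WT-only and 33.1% for shared WT peaks. The part of rank in the WT-only shares of the groups was not tested.

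**Figure D4:**
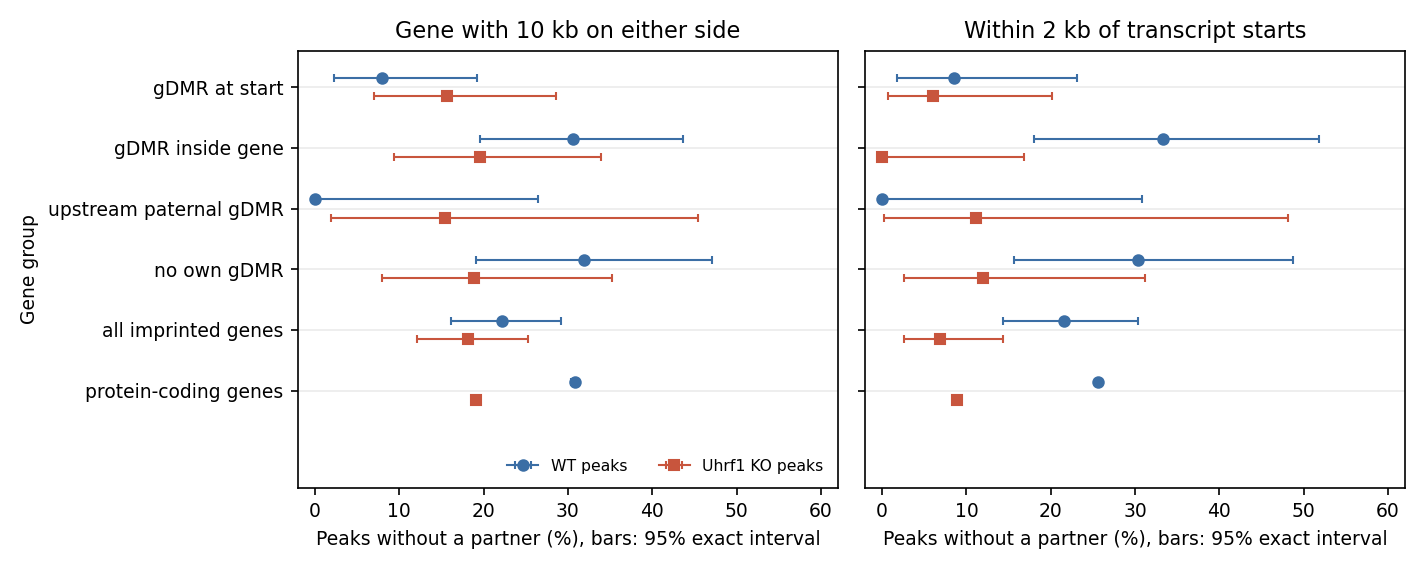
Share of peaks without a partner in the other library (x axis, percent, with exact 95% intervals) for groups of imprinted genes and for protein-coding genes (y axis), in the gene windows (left) and within 2 kb of starts (right). In the windows the WT share is 8.0% for genes with a gDMR at the start and 31.9% for genes without one of their own.

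At the starts, WT-only peaks were 3 of 35 (8.57%) at genes with a gDMR at the start, 11 of 33 (33.3%) at genes with one inside and 10 of 33 (30.3%) at genes without one. Over all imprinted genes 24 of 111 WT start peaks (21.6%) and 6 of 87 KO start peaks (6.90%) were unshared, beside 25.6% and 8.90% at protein-coding starts. The 6 KO-only start peaks belonged to H19, Phlda2, Magel2 with 2 and Zrsr1 with 2.

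By expressed copy, paternally expressed genes had 74 WT and 69 KO peaks, with 11 WT-only (14.9%) and 12 KO-only (17.4%). Maternally expressed genes had 69 WT and 61 KO peaks, with 17 WT-only (24.6%) and 12 KO-only (19.7%). The intervals of the WT-only shares overlapped (7.66 to 25 and 15.1 to 36.5).

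WT-only peaks at imprinted starts mostly lay on the transcribed side. Of the 24, 21 lay downstream of the nearest start (87.5%, interval 67.6 to 97.3), at a median distance of 542 bp. Shared WT start peaks lay downstream in 42 of 87 cases (48.3%), at a median of 144 bp. At protein-coding starts 61.0% of the WT-only and 40.1% of the shared WT peaks were downstream, with medians of 267 and 108 bp. Several of the 21 are neighbours within 1 gene, such as the 3 at Ascl2 and the 3 at Gnas.

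The unshared peaks of the 2 lists differed in base composition. The 26 KO-only peaks of imprinted windows had a median GC content of 53.5% with 2 CpGs. The 37 WT-only peaks had a median of 65.3% GC with 7 CpGs, and shared peaks 62.4% GC with 6 CpGs in both libraries. The same direction was seen over all peaks, with 51.5% GC for KO-only and 60.4% for WT-only. The CpG-rich KO-only peaks were few and included those near the starts of Zrsr1, H19 and Phlda2, 2 inside Trappc9 and the one in the Nnat window.

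**Figure D5:**
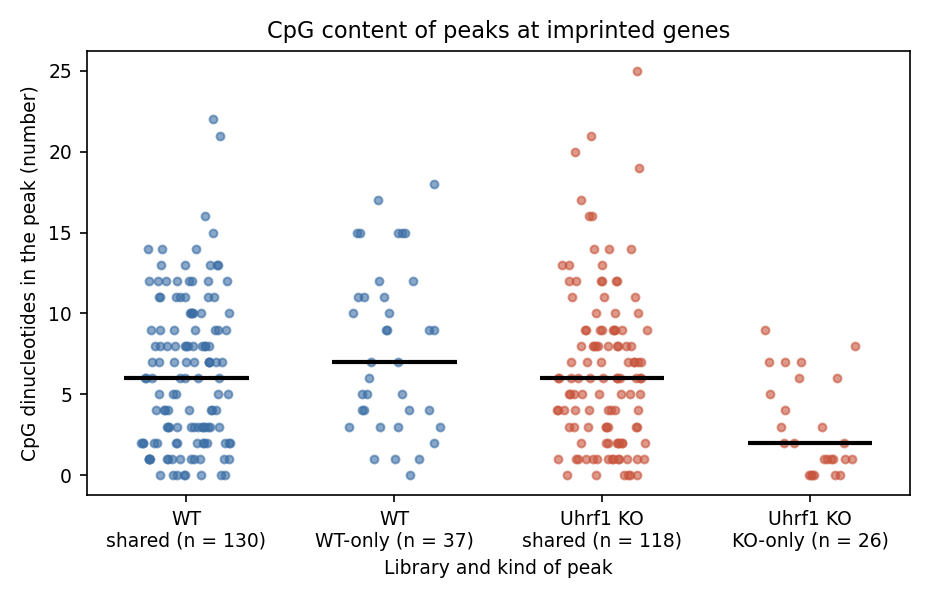
Number of CpG dinucleotides in each peak of the imprinted windows (y axis) by library and by whether the peak had a partner (x axis), with 1 point per peak and a bar at the median. KO-only peaks have a median of 2, and the other kinds have medians of 6 or 7.

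Shared peaks were placed closely. The middles of the 130 shared WT peaks lay a median of 34.5 bp from the nearest KO peak, 26 of them within 10 bp and 2 at the identical position. The central 31 bp occurred once in the genome for 165 of 167 WT and 142 of 144 KO peaks, so nearly all of these peaks are in unique sequence.

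Of 38 further imprinted genes listed for comparison, 35 were found in the annotation. A start peak was present in both libraries for 20 of them, in WT only for 6 (Slc22a18, Tfpi2, Klf14, Slc22a3, Kcnk9 and Dcn), in Uhrf1 KO only for 2 (Airn and Blcap) and in neither for 7. Over all annotated genes 45.7% had a start peak in WT and 42.0% in Uhrf1 KO. The WT-only and KO-only shares were 5.62% and 1.92%, and 6.64% and 1.73% over protein-coding genes. The Airn and Blcap peaks are those of the Igf2r and Nnat windows. Mcts2, Nespas and Commd1 also overlap imprinted windows, so this list is not separate. The windows of these further genes held 157 WT and 132 KO peaks, with 20 genes fewer and 7 more in Uhrf1 KO. Here too, the shares of all genes with fewer or more KO peaks were not computed. The whole KO list was also shorter, with 61640 peaks against 71914 in WT. Among genes that protect or maintain imprints (Zfp57, Zfp445, Trim28, Setdb1, Dnmt1, Uhrf1, Dppa3 and Ctcf), 7 of 8 had a start peak in both libraries, Uhrf1 included, so the lists do not check the knockout itself. All 7 ESC marker genes were open at the start in both libraries. Of 7 fibroblast genes that feeder cells express, 5 were open in both and Col3a1 and S100a4 in neither, and the part of feeder cells in these peaks was not tested.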

How the data were processed

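Per the labels and the study's methods, the authors mapped ATAC-seq reads to mm9 with Bowtie2 2.1.0 and used fragments shorter than 150 bp. HOMER 4.9.1 is named in the submitters' processing notes with no role. The peak caller's settings are not given in the sources used here. The deposited files hold chromosome, start, end, a name and a score, and the score deposited by the authors has the constant value 1. No read counts stand behind single peaks, so their depth is unknown. Each genotype has 1 library.

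Peaks were converted to 1-based positions, assigned by their middle to GENCODE vM1 genes (NCBIM37, the same build as mm9) and matched between lists by a gap of at most 100 bp. Intervals are exact Poisson for numbers, exact Clopper-Pearson for shares and the corresponding binomial interval for ratios, at 95%. The matching was tested on 20000 simulated peaks with 0 wrong calls. Promoters of RefSeq (300 bp, GRCm38.p6) were placed only by exact match to NCBIM37, for Kcnq1ot1 and Usp29. Places of gDMRs and expressed copies were taken from general knowledge, not from the files. Python 3.11.15, numpy 2.4.6, pandas 2.3.3, scipy 1.17.1, pysam 0.24.0, numba 0.67.0 and matplotlib 3.10.9 were used.

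The imprinted genes and all lists were chosen with earlier results of these data known. Every imprinted gene is accounted for. Positions are given for genes with a start peak in 1 list only, the 6 with the largest difference in peak number (7 with a tie) and those with a gDMR at the start or inside. Airn, Nespas, Mcts2, Commd1 and Blcap starts inside the windows, and the side of peaks from a start, were added after values were seen.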

Additional observations from a re-analysis of the deposited data

How the results depend on the processing

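No paired analysis was possible because there is a single library per genotype, which also means that none could be left out. For 12 results, 77 alternative values were computed, of which 60 stayed within the interval of the reported value or within 1.5 times a count. With only the lower 50% of name numbers the windows held 91 WT and 84 KO peaks, 6 genes were open at the start in the WT list only (Igf2r, Cdkn1c, Ascl2, Mest, Gnas and Slc38a4) and 2 in the KO list only (Dlk1 and Sgce). Neither Igf2 nor H19 was then among them, because neither of their peaks is in that part. The KO list alone also had 2 genes within 1 kb of starts (H19 and Zrsr1) and with the WT list shortened to the KO length (H19 and Phlda2). WT peaks without a partner rose to 32.9% when 1 bp had to be shared and to 47.9% when 50% of both peaks had to be shared, where KO peaks without a partner reached 38.9%. The 50% rule gave WT-only shares of 36.0% with a gDMR at the start, 56.5% with one inside and 53.2% without one. The group at the start was below the others, but the intervals overlapped (22.9 to 50.8, 43.3 to 69.0 and 38.1 to 67.9). With 50 kb on either side these shares were 17.8%, 42.3% and 29.9%, and with 1 bp shared 18%, 43.5% and 38.3%, so the share at the start rose from 8.0% by over 1.5 times in both. When the lower 50% of 1 list was matched to the complete other list, the unshared shares were 4.40% in WT and 5.95% in Uhrf1 KO. The WT-only shares of the 3 groups were then 0%, 6.67% and 8.33%, with overlapping intervals (0 to 9.74, 0.818 to 22.1 and 1.03 to 27.0). That setting and all alternatives for the gDMR groups were chosen after seeing the data. The depth behind a peak is unknown, so a missing peak does not show closed chromatin.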
